A study of Mus musculus with 8 samples.

Results

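The 8 genes described here are known from venous endothelium or from the capture of leukocytes by the vessel wall. They are *Nr2f2*, *Lrg1*, *Tmem252*, *Selp*, *Sele*, *Icam1*, *Icam2* and *Vcam1*, a list of names chosen with earlier results of these data known, and they are 8 of the 49315 genes counted. Brain endothelial cells (ECs) were compared by RNA sequencing between 4 mutant and 4 wild-type mouse pups at day 9 of life, with 1 library per pup. The mutant pups were *R26*GT-Map2k1-GFP/+;*Tg-Cdh5CreER*+/−. In them tamoxifen given at day 1 allowed a cDNA of *Map2k1* carrying the K57N change, followed by GFP, to be made from the *Rosa26* locus under the CAG promoter in cells where the *Cdh5* promoter drives Cre. The wild-type pups came from the same tamoxifen-treated litters, and 1 of the supplementary table titles names the control by the Cre transgene alone. Only a minority of the mutant pups' brain ECs carried the recombined allele, so each mutant library mixes recombined and unrecombined cells, and the transgene is expressed above the endogenous gene. ECs were collected with beads against CD31, the product of *Pecam1*, after enzymatic digestion of the brain.

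Leukocytes leave the blood mainly through venules. P-selectin and E-selectin (*Selp*, *Sele*) on the EC surface slow passing leukocytes so that they roll, and the immunoglobulin family ligands ICAM1, ICAM2 and VCAM1 then hold them by binding leukocyte integrins until they cross the wall. P-selectin is stored ready-made with von Willebrand factor in Weibel-Palade bodies, the secretory granules of ECs, while E-selectin must be newly made. *Nr2f2* encodes COUP-TFII, a nuclear receptor required for venous identity, *Lrg1* encodes a secreted glycoprotein that modifies TGF-beta signalling in ECs, and *Tmem252* encodes a little-studied membrane protein found in venous ECs of the brain.

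Between 24833373 and 34196955 reads per mutant library and between 28146348 and 32208421 per wild-type library were counted on genes. *Map2k1*, the targeted gene, lay between 12692 and 18734 normalized counts in mutant and between 1506 and 1762 in wild-type libraries, and reads of the transgene are part of this value. Normalized counts are counts scaled by edgeR's TMM method to a common library size. The 10 endothelial markers summed to between 352567 and 424545 normalized counts in mutant and between 330405 and 403017 in wild-type libraries. Endothelial RNA was thus abundant in all 8, which does not show that other cells were absent. Sums of the 10 microglia and macrophage markers reached 17536 in mutant library 3, 13390 in mutant library 4 and 19556 in wild-type library 3, and lay between 4844 and 8049 in the other 5 libraries. All 6 oligodendrocyte and all 6 red blood cell markers were differentially expressed and lower in mutant ECs, with red blood cell sums between 2582 and 8473 against 15764 and 27354, and oligodendrocyte sums between 818 and 1780 against 2719 and 8047. In bulk RNA, fewer cells of a type and less RNA per cell cannot be told apart.

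A gene was called differentially expressed when edgeR's quasi-likelihood test gave a Benjamini-Hochberg adjusted p under 0.05 over the 16887 genes tested together with an absolute log2 fold change over 1. All 8 genes were tested. 4 of them were called, all higher in mutant ECs: *Lrg1*, *Sele*, *Selp* and *Tmem252*. Of all genes tested, 14.0% were called, 5.90% as higher and 8.05% as lower. At the adjusted p alone, 5 of the 8 genes passed, all higher, against 44.4% of all genes (21.5% higher and 22.9% lower). The same 5 genes had every mutant library above every wild-type library, whereas 42.5% of all genes had no overlap in either direction, 20.6% with the mutant libraries above and 21.9% with them below. *Icam1*, *Icam2* and *Vcam1* did not pass, and their groups overlapped. The median log2 fold change of the 8 genes was 0.78, beside -0.02 over all genes tested.

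**Figure D1:**
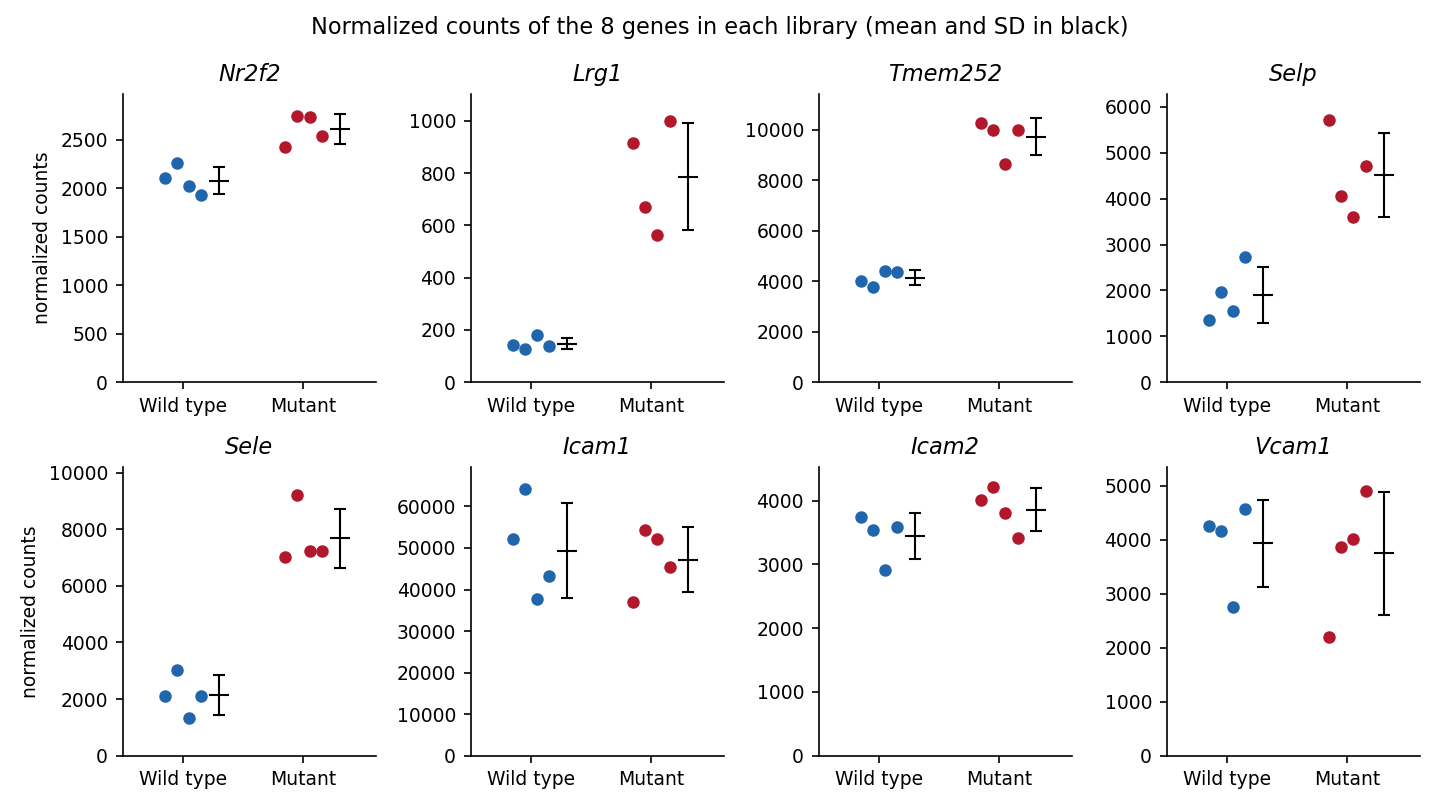
Normalized counts (y axis, linear, from 0) of the 8 genes in each of the 4 wild-type (blue) and 4 mutant (red) libraries, with the mean and SD of each group in black. *Lrg1*, *Tmem252*, *Selp*, *Sele* and *Nr2f2* show no overlap between groups, and *Icam1*, *Icam2* and *Vcam1* overlap.

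Transcription of *Sele* and *Icam1* is known to be induced by cytokines through their promoters, so the RefSeq sequence of the 250 bases before the RefSeq start of the selectin genes and *Icam1* is shown (GRCm38.p6, 5′ to 3′ on the gene's strand). *Sele* and *Selp* lie on the same stretch of chromosome 1 and were both higher in mutant ECs, and *Icam1*, on chromosome 9, was not. *Sele* is at chr1:164047984-164048233, *Selp* at chr1:164115014-164115263 and *Icam1* at chr9:21015690-21015939, all on the plus strand. Capitals mark matches to the motifs searched on both strands.
Sele: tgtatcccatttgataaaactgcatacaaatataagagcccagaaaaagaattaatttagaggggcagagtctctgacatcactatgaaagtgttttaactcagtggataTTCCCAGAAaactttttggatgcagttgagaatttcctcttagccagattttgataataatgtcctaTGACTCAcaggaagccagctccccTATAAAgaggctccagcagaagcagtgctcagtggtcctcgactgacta
Selp: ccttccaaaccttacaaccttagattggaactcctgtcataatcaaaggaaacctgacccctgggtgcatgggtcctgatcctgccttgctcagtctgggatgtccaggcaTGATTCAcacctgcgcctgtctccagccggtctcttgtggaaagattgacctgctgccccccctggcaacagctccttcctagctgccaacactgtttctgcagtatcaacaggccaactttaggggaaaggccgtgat
Icam1: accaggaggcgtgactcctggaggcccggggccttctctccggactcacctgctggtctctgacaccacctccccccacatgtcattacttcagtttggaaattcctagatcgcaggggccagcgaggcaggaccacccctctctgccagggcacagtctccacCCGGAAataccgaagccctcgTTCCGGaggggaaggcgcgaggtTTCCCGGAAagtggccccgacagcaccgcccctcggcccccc
In *Sele* the capitals are, in order, a STAT motif (TTCNNNGAA), an AP-1 motif (TGANTCA) and a TATA box (TATAAA). *Selp* held 1 AP-1 motif. *Icam1* held 3 ETS motifs (CCGGAA), the second of them on the opposite strand, and a STAT motif that overlaps the last ETS motif. Of 32851 promoter windows of the same length, 12.4% held the TATA box, 7.02% the STAT motif, 6.75% the AP-1 motif and 9.55% the NF-kB motif, which none of the 3 windows held as searched, and 3952 windows held the ETS motif. The windows of *Nr2f2*, *Lrg1* and *Tmem252* were searched in the same way and held none of these letters. The NF-kB search took exact matches to a single consensus, so sites that differ from it by 1 letter were not counted. The *Icam1* window holds tggaaattcc and the *Sele* window gagaatttcc, each 1 letter away from that consensus (GGRRNNYYCC, R for A or G, Y for C or T). Other such sites, and the share of all windows that hold one, were not searched for. A match is a description of letters only, and binding was not measured.

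*Nr2f2* (ENSMUSG00000030551, GRCm38 chromosome 7, 70351944 to 70366735, minus strand) was slightly higher in mutant ECs. It had 2425, 2743, 2739 and 2536 normalized counts in mutant libraries 1 to 4 and 2107, 2262, 2020 and 1932 in wild-type libraries 1 to 4. The lowest mutant library stood just above the highest wild-type library. Means were 2611 ± 157 and 2080 ± 141 (SD, n = 4 each), and the log2 fold change was 0.33 (SE 0.07, 95% interval 0.17 to 0.49, adjusted p = 0.004329), below the fold limit for a call. With 1 library per pup, the p-values measure the spread between these pups.

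*Lrg1* (ENSMUSG00000037095, chromosome 17, 56119680 to 56121946, minus strand) had the largest fold of the 8 genes. Its normalized counts were 915, 669, 562 and 998 in mutant libraries 1 to 4 and 142, 128, 179 and 140 in wild-type libraries 1 to 4. Every mutant library held more than any wild-type library, and the mutant libraries also differed among themselves, with mutant libraries 1 and 4 the highest. *Lrg1* was 5.33-fold higher in mutant ECs (log2 fold change 2.41, SE 0.19, 95% interval 1.98 to 2.85, adjusted p = 1.218e-05).

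*Tmem252* (ENSMUSG00000048572, chromosome 19, 24674008 to 24679661, plus strand) gave the tightest values of the genes called. Mutant libraries 1 to 4 had 10275, 9974, 8658 and 9998 normalized counts, and wild-type libraries 1 to 4 had 4006, 3787, 4393 and 4359. The 2 groups lay far apart, and the coefficient of variation was 7.46% in mutant and 7.05% in wild-type libraries. *Tmem252* rose 2.35-fold (log2 fold change 1.23, SE 0.08, 95% interval 1.05 to 1.41, adjusted p = 3.943e-06), the smallest adjusted p of the 8 genes.

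Both selectins rose. *Sele* (ENSMUSG00000026582, chromosome 1, 164048234 to 164057677, plus strand) had 7031, 9227, 7230 and 7220 normalized counts in mutant libraries 1 to 4 and 2098, 3033, 1341 and 2100 in wild-type libraries 1 to 4. The lowest mutant library held more than the highest wild-type library by a wide margin, and mutant library 2 was the highest of its group. The rise was 3.58-fold (log2 fold change 1.84, SE 0.21, 95% interval 1.38 to 2.30, adjusted p = 8.543e-05).

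*Selp* (ENSMUSG00000026580, chromosome 1, 164115264 to 164150026, plus strand) had 5714, 4048, 3590 and 4722 normalized counts in mutant libraries 1 to 4 and 1358, 1957, 1547 and 2722 in wild-type libraries 1 to 4. The groups did not overlap, although mutant library 3 and wild-type library 4 were not far apart. *Selp* was 2.39-fold higher (log2 fold change 1.25, SE 0.21, 95% interval 0.78 to 1.72, adjusted p = 0.0009239). The interval reaches below the fold limit.

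The 3 immunoglobulin family genes did not pass the test. *Icam1* (ENSMUSG00000037405, chromosome 9, 21015985 to 21028817, plus strand), the ligand of leukocyte beta2 integrins that cytokines induce, had 36956, 54346, 52126 and 45447 normalized counts in mutant libraries 1 to 4 and 52140, 64202, 37798 and 43341 in wild-type libraries 1 to 4. Mutant library 1 was the lowest and wild-type library 2 the highest, with the other 6 interleaved. The log2 fold change was -0.06 (95% interval -0.44 to 0.31, adjusted p = 0.7822), so a rise or fall of the size seen for the selectins lay outside the interval. Its sign turned without mutant library 1 (0.06) and without wild-type library 2 (0.08).

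*Icam2* (ENSMUSG00000001029, chromosome 11, 106377656 to 106388075, minus strand), which ECs express without stimulation, had 4001, 4205, 3811 and 3411 normalized counts in mutant libraries 1 to 4 and 3737, 3531, 2913 and 3592 in wild-type libraries 1 to 4. In 3 mutant libraries it was above every wild-type library, and in mutant library 4 it was not. The log2 fold change was 0.16 (95% interval -0.04 to 0.37, adjusted p = 0.1814).

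*Vcam1* (ENSMUSG00000027962, chromosome 3, 116109949 to 116129688, minus strand), the ligand of the integrin built from *Itga4* and *Itgb1*, had 2196, 3876, 4007 and 4912 normalized counts in mutant libraries 1 to 4 and 4259, 4164, 2753 and 4573 in wild-type libraries 1 to 4. The lowest and the highest of the 8 values were both in mutant libraries. Its coefficient of variation, 30.2% in mutant and 20.5% in wild-type libraries, gave the widest interval of the 8 genes, with a log2 fold change of -0.07 (95% interval -0.57 to 0.43, adjusted p = 0.8213). The sign turned without mutant library 1 (0.14) and without wild-type library 4 (0.0065). Without mutant libraries 3 and 4 and wild-type library 3, those with the highest microglia and macrophage sums, it was -0.49 (adjusted p = 0.09197).

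**Figure D2:**
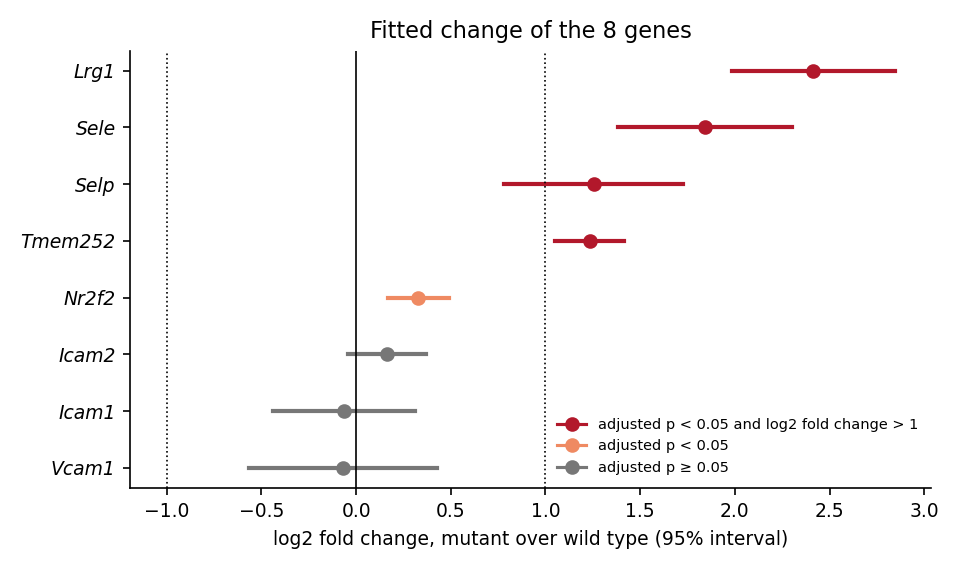
Fitted log2 fold change of mutant over wild-type ECs (x axis) with its 95% interval for each of the 8 genes, with dotted lines at the fold limit of 1 in either direction. The intervals of *Icam2*, *Icam1* and *Vcam1* include 0, that of *Nr2f2* lies between 0 and the limit, and those of *Lrg1*, *Sele* and *Tmem252* lie wholly past it.

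Replicates 1 and 2 of both groups share the start of their sample description, and replicates 3 and 4 each have their own. What this prefix stands for is not given in the sources used here, which state that wild-type pups were matched to mutants within litters and that all samples were processed together. Within the 3 prefixes the difference of mean log2 CPM (counts scaled to the library size), mutant minus wild type, was above 0 each time for the 5 genes that passed. It was 0.24 to 0.44 for *Nr2f2*, 1.64 to 2.81 for *Lrg1*, 0.98 to 1.38 for *Tmem252*, 0.79 to 1.56 for *Selp* and 1.67 to 2.43 for *Sele*. It changed sign between prefixes for *Icam1* (-0.37 to 0.46), *Vcam1* (-0.53 to 0.54) and *Icam2* (-0.07 to 0.39). A prefix holds 1 or 2 libraries of each group, so these are values without a test.

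**Figure D3:**
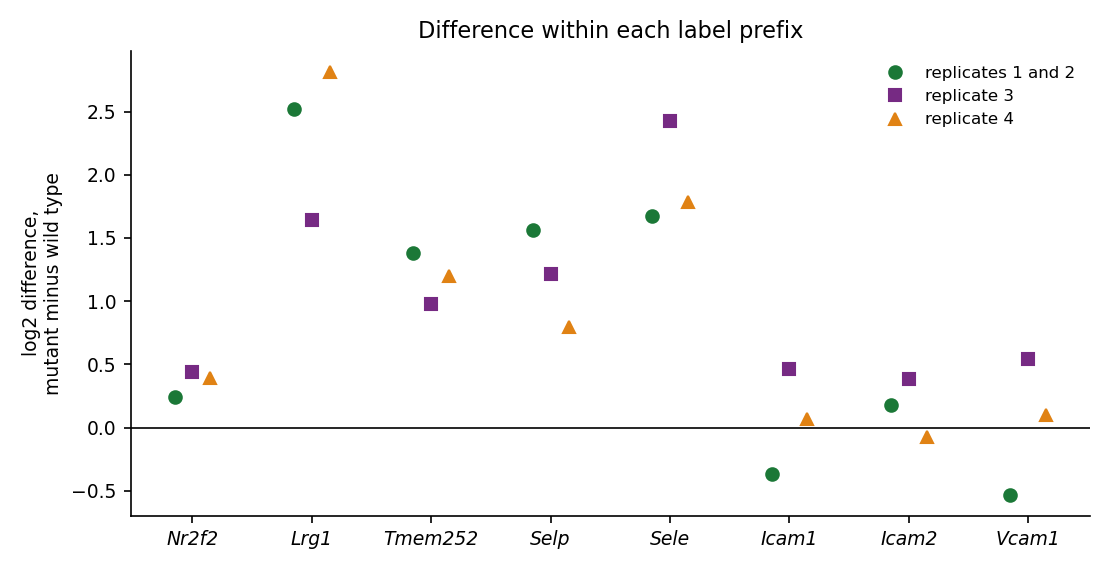
Difference of mean log2 CPM, mutant minus wild type (y axis), for each of the 8 genes within each label prefix, with green circles for replicates 1 and 2, purple squares for replicate 3 and orange triangles for replicate 4. The points of *Nr2f2*, *Lrg1*, *Tmem252*, *Selp* and *Sele* are all above 0, and those of *Icam1*, *Icam2* and *Vcam1* lie on both sides.

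Per length, *Icam1* had by far the highest level of the 8 genes in both groups. In wild-type ECs its level was 382 ± 89.0 CPM per kb (SD, n = 4), the 71st highest of 16887 genes, and *Icam2* (60.9 ± 6.44) and *Tmem252* (56.6 ± 3.99) came next with overlapping libraries. *Sele* (24.8 ± 8.01), *Vcam1* (15.0 ± 3.07) and *Selp* (14.5 ± 4.62) followed, each overlapping its neighbour in this order. *Nr2f2* (8.13 ± 0.550) and *Lrg1* (3.67 ± 0.550) were the lowest and were separate from each other and from *Selp*.

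In mutant ECs *Tmem252* (133 ± 9.92 CPM per kb) and *Sele* (88.8 ± 12.005) stood above *Icam2* (68.3 ± 5.98), and *Selp* (34.5 ± 7.04) above *Vcam1* (14.2 ± 4.30). *Icam1* remained first at 365 ± 60.4. *Lrg1* (19.6 ± 5.11) moved from last to a place between *Selp* and *Vcam1* in the order of means, where its libraries overlapped those of *Vcam1*, which in turn overlapped *Nr2f2* (10.2 ± 0.615).

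**Figure D4:**
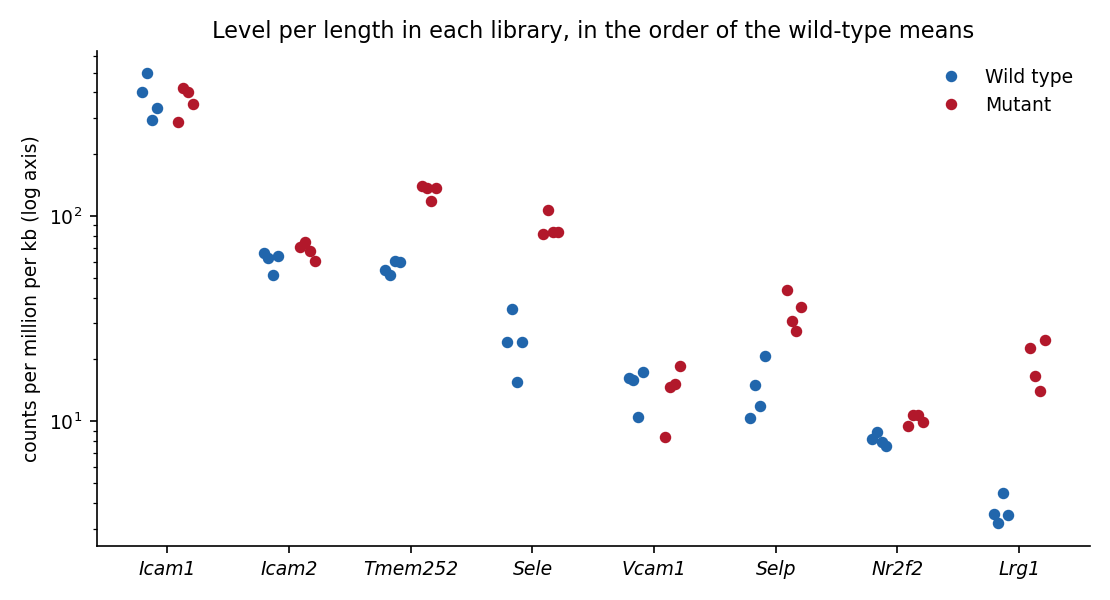
Level of each of the 8 genes in CPM per kb of exon (y axis, log scale) in the 4 wild-type (blue) and 4 mutant (red) libraries, ordered by the wild-type mean. *Icam1* is highest in both groups, and *Lrg1*, lowest in wild-type ECs, lies above *Nr2f2* in mutant ECs.

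Ratios between members within a library do not depend on the scaling. The *Selp* to *Sele* ratio of counts per kb had a log2 mean of -1.38 ± 0.40 in mutant and -0.77 ± 0.54 in wild-type ECs, a difference of -0.61 that did not pass an exact two-sided permutation test over the 8 libraries (p = 0.1714, adjusted over 3 ratios 0.5143). For *Icam1* to *Icam2* the log2 means were 2.41 ± 0.27 and 2.62 ± 0.26 (exact permutation p = 0.4, adjusted 0.6). For *Vcam1* to *Icam1* they were -4.72 ± 0.36 and -4.67 ± 0.30 (exact permutation p = 0.8, adjusted 0.8). With 4 against 4 libraries the smallest p this test can give is 0.02857. None of the 3 ratios separated the groups, and the direction of the *Vcam1* to *Icam1* ratio turned without mutant library 1 and without wild-type library 4.

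On chromosome 1, *Sele*, *Selp* and *F5* all lie on the plus strand. *F5*, coagulation factor V, begins 1811 bases after *Selp* and was called lower (251 ± 90.7 against 1029 ± 115 normalized counts, log2 fold change -2.03, adjusted p = 8.026e-05), so it did not rise with the selectin genes.

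Among the other neighbours, *Sema6b*, 1138 bases from *Lrg1*, was higher by 0.69 on the log2 scale (adjusted p = 0.002559), and *Ern1*, next to *Icam2*, by 0.76 (adjusted p = 0.02267), both below the fold limit. *Pip5k1b*, next to *Tmem252*, was lower (log2 fold change -0.79, adjusted p = 0.0001956), as were *Extl2*, next to *Vcam1* (-0.70, adjusted p = 0.01001), and *Arrdc4*, next to *Nr2f2* (-0.51, adjusted p = 0.04347). *Pgm5* (adjusted p = 0.4111), *Mrpl4* (0.138), *Prr29* (0.4264) and *Mettl18* (0.952) did not pass. *Plin5*, *Gm10295* and *Icam4* had too few counts to be tested. Antisense genes share exon bases with *Nr2f2* (643 with *B130024G19Rik*), *Icam1* (511 with *Gm47079*), *Selp* (186 with *Gm16587* and 438 with *Gm16548*) and *Vcam1* (61 with *Gm43109*). Strand use in the counting is not given, so shared reads cannot be told apart, but the means of these antisense genes ran from 4.37 to 116 normalized counts, far under those of their partners.

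The other genes of the pathways around the 8 members were taken from 12 lists of 178 genes, of which 173 were tested. Together 21 were called higher and 19 lower, with a median log2 fold change of -0.03, close to that of all genes (-0.02). The lists differed among themselves in counts and medians, beside the 5.90% of all genes called higher and 8.05% called lower. For list counts at the adjusted p alone, the shares over all genes are 21.5% higher and 22.9% lower.

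Of the 13 other venous endothelial genes, 5 were called higher and 1 lower, and 10 higher and 2 lower at the adjusted p alone, with a median log2 fold change of 0.45. *Plvap*, the protein of the diaphragms of fenestrae and caveolae, had 8858 ± 3021 normalized counts in mutant and 926 ± 118 in wild-type ECs (log2 fold change 3.26, adjusted p = 5.777e-06). *Lcn2*, lipocalin 2, had 651 ± 89.4 and 146 ± 25.3 (2.16, adjusted p = 5.081e-06). *Ackr1*, the atypical chemokine receptor that carries chemokines across venular endothelium, had 2228 ± 325 and 581 ± 80.4 (1.94, adjusted p = 3.943e-06). *Vwf*, von Willebrand factor, rose by 1.15 on the log2 scale (adjusted p = 7.42e-05). *Slc38a5*, an amino acid transporter of brain ECs, went the other way, with 3929 ± 1359 against 18638 ± 1795 (-2.25, adjusted p = 3.973e-05). *Il1r1*, *Nrp2*, *Flt4*, *Aplnr* and *Ctsc* were higher below the fold limit, at log2 fold changes from 0.40 to 0.76, *Adgrg6* was lower (-0.45, adjusted p = 0.03024), and *Ephb4*, the venous Eph receptor, did not pass (-0.15, adjusted p = 0.3176).

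Of 18 arterial endothelial genes, 7 were called lower and none higher, and at the adjusted p alone 12 were lower, with a median log2 fold change of -0.76. *Gkn3*, a marker of brain arterial ECs, had 193 ± 31.7 normalized counts in mutant and 1472 ± 477 in wild-type ECs (log2 fold change -2.93, adjusted p = 1.525e-05). The chemokine gene *Cxcl12* had 2859 ± 1531 and 17795 ± 3350 (-2.64, adjusted p = 0.0002519). *Vegfc* (-1.41, adjusted p = 3.863e-05) and the elastic fibre gene *Fbln5* (-1.33, adjusted p = 4.043e-05) were also called lower. The other 6 did not pass. Among them the estimates of *Efnb2* (0.07, adjusted p = 0.5668) and *Jag1* (0.22, adjusted p = 0.1592) were above 0. Those of *Gja5*, *Nrp1*, *Sema3g* and *Mgp* were below 0. Leaving out 1 library left between 5 and 8 arterial genes called lower.

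Of the 15 other endothelial genes of rolling, arrest and transmigration tested, 3 were called higher and 2 lower, with a median log2 fold change of 0.28. *Mcam*, the adhesion molecule CD146, had 42243 ± 3997 normalized counts in mutant and 11071 ± 657 in wild-type ECs (log2 fold change 1.93, adjusted p = 4.579e-07). *Cdh5*, VE-cadherin of the EC junction, rose by 1.11 on the log2 scale (adjusted p = 6.037e-05), and the Cre transgene of this line uses its promoter. *Alcam* rose by 1.04 (adjusted p = 0.003792), but by 0.74 without mutant library 4 and by 0.97 with label prefix or replicate number as a block, under the fold limit. The junctional gene *Jam2* (-1.36, adjusted p = 2.284e-05) and *Podxl* (-1.22, adjusted p = 0.0001016), an anti-adhesive sialomucin that can carry selectin ligand sugars, were called lower. *Pecam1*, the target of the beads, was higher by 0.53 (adjusted p = 0.001963).

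**Figure D5:**
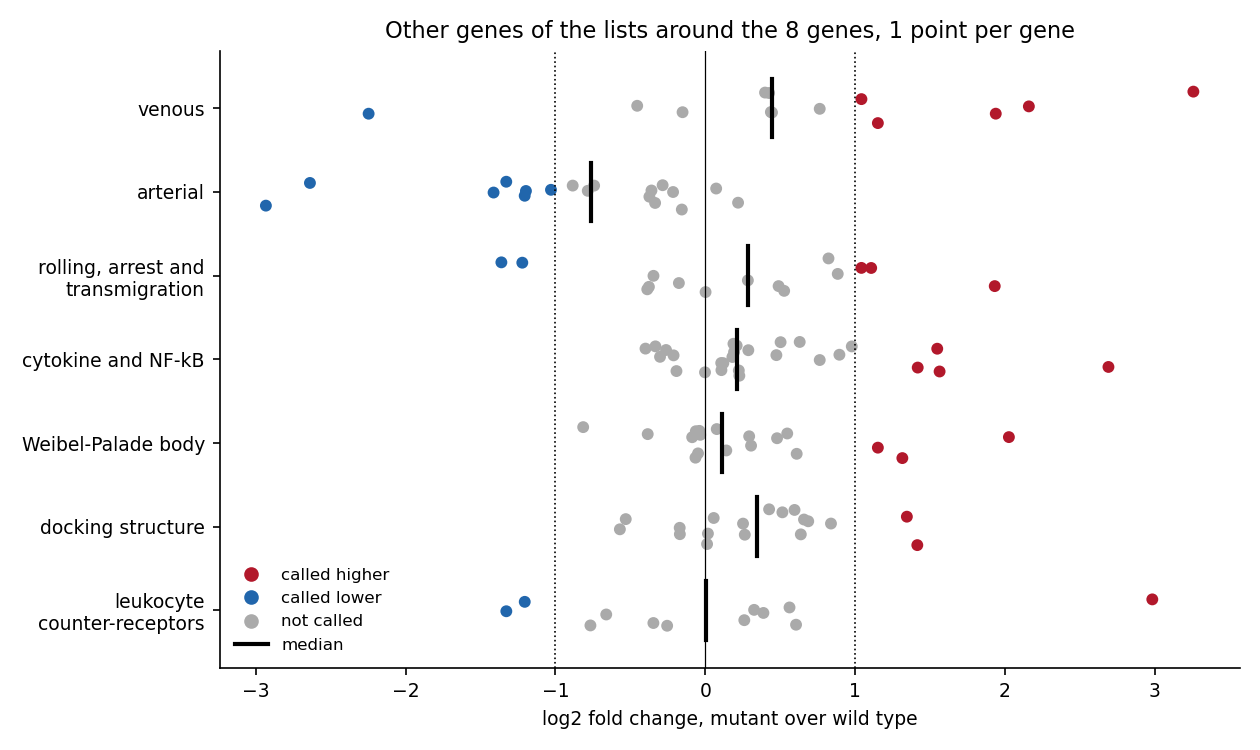
Fitted log2 fold change of mutant over wild-type ECs (x axis) for the other tested genes of 7 of the 12 lists, 1 point per gene, red for genes called higher, blue for genes called lower and grey for the rest, with the list median as a black bar and dotted lines at the fold limit of 1. The median is 0.45 for venous and -0.76 for arterial genes, and between 0.0033 and 0.35 for the other 5 lists.

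The cytokine-activated and NF-kB genes included 4 of 27 called higher and none lower, with a median of 0.21. *Tlr4*, the endotoxin receptor, had 1071 ± 212 normalized counts in mutant and 166 ± 6.51 in wild-type ECs (log2 fold change 2.69, adjusted p = 7.581e-07). *Ccl2* (1.56, adjusted p = 0.0132, with overlapping groups), *Csf3* (1.55, adjusted p = 5.463e-05) and *Traf1* (1.42, adjusted p = 8.352e-05) were the others. *Tnfrsf1a*, the main TNF receptor, was higher by 0.98 (adjusted p = 4.356e-05), just under the limit. The NF-kB subunit gene *Nfkb1* was higher (0.47, adjusted p = 0.001718) and *Rela* lower (-0.19, adjusted p = 0.036). The NF-kB feedback genes *Nfkbia* (-0.30, adjusted p = 0.1234) and *Tnfaip3* (-0.33, adjusted p = 0.3211) did not pass.

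Among 16 transcription factors known at the promoters of adhesion molecule genes, 1 was called higher and 4 lower, with a median log2 fold change of -0.26. *Hmga1*, an architectural chromatin protein, rose by 1.07 (adjusted p = 0.0002376), but by 0.96 without mutant library 4. *Klf2* had 3232 ± 888 normalized counts in mutant and 10622 ± 975 in wild-type ECs (-1.72, adjusted p = 4.38e-05), and *Klf4* was lower by -1.40 (adjusted p = 0.0001012). Both encode flow-responsive factors. The AP-1 genes *Fos* (-1.24, adjusted p = 0.0002394) and *Jun* (-1.13, adjusted p = 0.0001601) were also lower. *Fos* and *Jun* belong as well to the 13 genes induced by cell dissociation, of which 4 were called lower and none higher, with a median of -0.78 and summed normalized counts from 161274 to 271736 in mutant and from 336761 to 433703 in wild-type libraries. *Hspa1b* (-2.58, adjusted p = 3.625e-05) and *Hspa1a* (-2.51, adjusted p = 3.643e-05), heat shock chaperones, led them. The part of these genes in the levels of the adhesion genes was not tested.

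No gene was called among the 12 other members of the COUP-TF family and partners list, although 1 was called higher without wild-type library 3 and 1 lower without mutant library 2. With all libraries, 4 were lower at the adjusted p alone and the median log2 fold change was -0.24. The close relatives of *Nr2f2* did not pass (*Nr2f1* -0.57, adjusted p = 0.1688, and *Nr2f6* -0.09, adjusted p = 0.5928). *Hey1* (-0.88, adjusted p = 0.0006858) and *Hey2* (-0.74, adjusted p = 0.01664), Notch target genes of arterial ECs, were lower. Around *Lrg1*, the 19 genes of LRG1 and endoglin TGF-beta signalling held 1 called higher and 1 lower, with a median of -0.02. In 6 of the 18 alternatives 2 were called lower, among them the fit without mutant library 3 and the fits with label prefix or replicate number as a block. *Tgfb1* had 12783 ± 1268 normalized counts in mutant and 5752 ± 151 in wild-type ECs (1.15, adjusted p = 5.589e-06). *Smad7*, an inhibitor of the pathway, was lower (-1.18, adjusted p = 0.0001489), as were, under the fold limit, *Eng*, the co-receptor to which LRG1 binds (-0.42, adjusted p = 0.008988), and the target gene *Id1* (-0.73, adjusted p = 0.004272).

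Of the 18 other Weibel-Palade body genes tested, 3 were called higher and none lower, with a median of 0.11. They were *Angpt2*, the stored Tie2 ligand, with 16004 ± 2962 normalized counts in mutant and 3929 ± 1160 in wild-type ECs (log2 fold change 2.03, adjusted p = 3.863e-05), *Cd63*, a granule membrane protein that holds P-selectin at the surface (1.32, adjusted p = 0.002969), and *Vwf*, named above. The 18 genes of the cytoskeleton under docked leukocytes held 2 called higher and none lower, with 10 higher at the adjusted p alone and a median of 0.35. *Arhgef26*, an exchange factor that acts downstream of ICAM1 (1.42, adjusted p = 0.0001147), and the tetraspanin gene *Cd9* (1.35, adjusted p = 1.183e-05) were called. *Msn*, moesin, was higher (0.84, adjusted p = 2.883e-05) and *Ezr*, ezrin, lower (-0.57, adjusted p = 0.0001614), 2 related linkers of membrane and actin. Of the 6 genes of adhesion molecule shedding, 2 were called higher, *Mmp14* (1.88, adjusted p = 9.571e-06) and *Timp3* (1.74, adjusted p = 4.618e-06), an inhibitor of shedding enzymes. At the adjusted p alone 2 were lower, *Rhbdf1* (-0.76, adjusted p = 0.0002106) and the sheddase gene *Adam10* (-0.28, adjusted p = 0.02021). The sheddase gene *Adam17* did not pass (-0.09, adjusted p = 0.2785), and the median was -0.10.

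The 12 leukocyte counter-receptor genes tested held 1 called higher and 2 lower, with a median log2 fold change of 0.0033. *Itgax*, an integrin of myeloid cells, had 305 ± 165 normalized counts in mutant and 38.5 ± 26.0 in wild-type ECs (2.98, adjusted p = 0.001038), with 551 in mutant library 4 and 206 to 249 in the other 3 mutant libraries. *Itgb7* (29.5 ± 4.53 against 74.2 ± 11.1, adjusted p = 0.0005974) was called lower at few counts, and between 1 and 3 genes of the list were called lower when 1 library was left out. *Itgal* (adjusted p = 0.708), *Itgb2* (0.3785) and *Selplg*, the P-selectin ligand (0.5022), did not pass, with groups that overlapped. *Itgb1*, which ECs also express, was higher by 0.39 (adjusted p = 0.004227), and *Itga4* lower (-0.77, adjusted p = 0.0001943).

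The adhesion molecules recruit blood leukocytes, whose markers were measured in the same libraries. Cells were collected on beads against CD31 and unbound cells were washed off, so these markers cannot show whether leukocytes entered the tissue. None of the 8 tested neutrophil markers was called higher and 1 was called lower, with summed normalized counts from 459 to 836 in mutant and from 513 to 1139 in wild-type libraries. Lymphocyte markers, of which 4 of 9 could be tested, had 2 called lower and sums from 141 to 474 against 331 to 654. None of 10 microglia and macrophage markers and none of 7 tested platelet markers was called. Platelets carry P-selectin too, and platelet sums lay between 496 and 779 in mutant and between 517 and 683 in wild-type libraries. Of the other cells of the vessel and brain, pericyte and smooth muscle markers had 1 of 10 called higher with sums from 21034 to 35596 against 19948 to 37205. Fibroblast markers had 1 of 6 called lower, but 2 were higher at the adjusted p alone and the median log2 fold change was 0.39. Their sums, from 27085 to 34420 against 20796 to 29863, were mostly *Col1a1* (mean 16884 against 12888) and *Col1a2* (13165 against 10914). Astrocyte and ependyma markers had 1 of 7 called lower and a median log2 fold change of -0.87. Their sums, from 18340 to 22034 against 10908 to 12737, were nearly all *Gja1*, which ECs also express (19462 against 11160), and without it they ran from 334 to 1023 against 561 to 1096. Neuron markers had 4 of 7 lower with sums from 388 to 548 against 428 to 1167. The part of these cells in the levels of the 8 genes was not tested. Without mutant libraries 3 and 4 and wild-type library 3, *Sele* (log2 fold change 1.78), *Selp* (1.30, adjusted p = 0.004762), *Lrg1* and *Tmem252* were still called.

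For each of the 8 genes, the 2 genes with the nearest profile over the 8 libraries were sought among 11400 genes, by the root mean square difference of centred log2 CPM. They were *Gtf2f2* (0.04) and *Chaf1a* (0.04) for *Nr2f2*, *Sgk3* (0.06) and *Stard5* (0.07) for *Tmem252*, and *Mrpl40* (0.04) and *Dap* (0.05) for *Icam2*. Distances were larger for *Lrg1* (*Aldh1a3* 0.15, *Bst1* 0.16), *Icam1* (*Gm5127* 0.12), *Vcam1* (*Mcub* 0.16, *Cbr4* 0.18), *Selp* (*Slc2a13* 0.16, *Pxdc1* 0.18) and *Sele* (*Ppm1j* 0.25, *Gm16998* 0.26). No gene among the 8 was the nearest of another. *Bst1*, also named CD157, is a surface enzyme of ECs and myeloid cells, and *Aldh1a3* makes retinoic acid.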

How the data were processed

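The authors deposited whole-number counts of reads per gene for 8 libraries, after trimming with Trimmomatic and mapping to GRCm38 with STAR. The counting program and its use of strand are not given in the sources used here. The submitters' processing notes name DESeq2, and the authors' normalized values were not used. Positions come from the count files, and symbols from GENCODE vM21, which paired 48970 of the 49315 identifiers with a symbol and gave 44734 genes the same position. Groups and replicate numbers were taken from the sample titles.

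The counts were tested with edgeR 4.0.16 in R 4.3.3 (TMM, filterByExpr with a minimum count of 10, glmQLFit and glmQLFTest, no covariate), the thresholds being those of the study. SEs were taken from the fold change and its F statistic. Alternatives used DESeq2 1.42.0, limma 3.58.1, other scalings and filters, blocks, and each library left out in turn. 1 added alternative, without 3 libraries with high microglia and macrophage marker sums, was chosen after seeing the data. Ratios had 0.5 added to each count and were tested by exact permutation in Python 3.11.15. On simulated counts for 16514 genes, 100 of 100 genes changed by 1.5 and 100 of 100 changed by 2 on the log2 scale were recovered, with 0 unchanged genes called. These figures hold only for the effect sizes and the spread set in that run. Recovery of genes with smaller log2 differences, such as *Selp* (1.25) and *Tmem252* (1.23), was not tested. Libraries of the same group differed by more than sampling noise (chi-square per degree of freedom 7.41 to 42.8 over 12 pairs), so none was taken as the same library deposited again. This does not show that the libraries are independent. With 24833373 to 34196955 counts per library, each of the 8 genes was measured to within the spread between pups rather than that of counting.

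The 8 genes and all lists were chosen with earlier results of these data known. Beside the 8 genes, those named are up to 4 called higher and 4 called lower per list whose higher group averaged 100 or more normalized counts, the 2 nearest profiles per member, and overlapping or neighbouring genes. A few genes that this rule selects are not reported here, and they stay in the counts of their lists. Other list genes named for their role were chosen after their values were seen. Promoter sequences are from RefSeq and were found for 6 of the 8 genes.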

Additional observations from a re-analysis of the deposited data

Results flagged for a closer look

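In 12 of the 118 groups of 4 libraries examined for 59 genes and ratios, 1 library stood apart from the other 3 by Dixon's ratio at its 95% critical value. Chance flags about 1 in 20 groups. Among the 8 genes this was *Sele*, with 9227 normalized counts in mutant library 2 and 7031 to 7230 in the other mutant libraries. The *Icam1* to *Icam2* ratio was lowest in mutant library 1, at 2.01 on the log2 scale against 2.4965 to 2.5783.

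Of the genes of the lists, mutant library 4 was the highest for *Alcam* (1809 normalized counts against 861 to 962), for *Itgax* (551 against 206 to 249) and for *Traf1* (286 against 198 to 209). Wild-type library 3 was the lowest for *Cxcl12* (12796 against 19038 to 19885) and the highest for *Cd63* (2098 against 1007 to 1056) and *Foxj1* (237 against 107 to 122). Wild-type library 4 was the highest for *Angpt2* (5644 against 3080 to 3518) and *Traf1* (91.7 against 80.1 to 81.8). *Csf3* was lowest in wild-type library 1 (548 against 775 to 819). *Olig1* was highest in mutant library 2 (64.1 against 31.7 to 34.4).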

How the results depend on the processing

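Under all 18 alternatives 4 of the 8 genes were called and 5 passed the adjusted p alone. Over them the log2 fold change ranged from 2.30 to 2.56 for *Lrg1*, 1.68 to 2.05 for *Sele*, 1.14 to 1.48 for *Selp*, 1.17 to 1.35 for *Tmem252*, 0.27 to 0.39 for *Nr2f2* and 0.10 to 0.24 for *Icam2*. With each library left out in turn, *Vcam1* ranged from -0.21 to 0.14 and *Icam1* from -0.17 to 0.08. *Vcam1* turned positive without mutant library 1 (0.14) and without wild-type library 4 (0.0065), and *Icam1* without mutant library 1 (0.062) and without wild-type library 2 (0.084). The log2 difference of the *Vcam1* to *Icam1* ratio ranged from -0.22 to 0.08, turning positive without mutant library 1 (0.072) and without wild-type library 4 (0.081). The cause was not tested. The count of all genes called was 2356, and fell to 1503 with a filter on the mean of 50 normalized counts, where fewer genes are tested, and rose to 2849 without a filter. With libraries left out it was 2168 to 2662. Upper quartile scaling split the calls as 889 higher and 1508 lower, against 996 and 1360, and moved the median of all genes to -0.09.

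Same-numbered mutant and wild-type libraries did not all deviate together (correlations of 0.02 to 0.29), and the labels do not tie a number to a litter, so the numbers were not taken as pairs. All mutant and wild-type libraries that share a label prefix also had correlations of 0.02 to 0.29. Those of different prefixes ran from -0.36 to 0.38. With the replicate number as a block, 2431 genes were called, and the same counts of 4 and 5 of the 8 genes were obtained. The label prefix, which may or may not mark the litter, gave 2456 genes called as a block and again 4 and 5 of the 8 genes, with 8610 genes at the adjusted p alone against 7504.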
